A study of Rattus norvegicus with 12 samples.

Results

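Cd36 and 8 other genes that carry fatty acids from the blood into cells were examined in the left atrium of rats. The 9 genes (Cd36, Fabp3, Fabp4, Fabp5, Slc27a1, Slc27a4, Lpl, Gpihbp1 and Vldlr) were chosen by symbol, from 21239 genes with counts, because Cd36 was already known to be low in every library of the SHR strain. The values that chose them are therefore the levels of these genes in SHRs against WKY rats, and those are given below as a description without a test. Their NCBI gene identifiers are 29184, 79131, 79451, 140868, 94172, 311839, 24539, 300027 and 25696, in the same order. All 9 genes passed the filter on low counts in every comparison.

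RNA-sequencing was performed on the left atrium of 12 male rats, with 3 libraries in each of 4 groups. Normotensive Wistar-Kyoto rats (WKY) and spontaneously hypertensive rats (SHR) received saline at 7.5 ml/kg/day, the ARB group were SHRs that received the angiotensin receptor blocker valsartan at 30 mg/kg/day, and the ARNI group were SHRs that received sacubitril/valsartan, an angiotensin receptor-neprilysin inhibitor, at 60 mg/kg/day. The rats were bought at an age of 14 weeks, and treatment lasted 4 weeks. The 9 libraries of the SHR, ARB and ARNI groups are called SHR-strain libraries here. For the 6 saline libraries the strain in the sample title is the opposite of the strain in the library name given in brackets, and the libraries were grouped by library name, which is also the name of the data column. Grouped by the words of the title, every difference between SHR and WKY below would have the opposite sign. The comparisons of ARB and of ARNI with SHR would then have the libraries named WKY as controls, and the set of SHR-strain libraries would change. The ARB and ARNI libraries, which are SHRs by their titles, had Cd36 at 63.6 to 285 CPM, the side of the libraries named SHR. This level cannot decide between the groupings, because Cd36 was the reason for the choice of genes. The libraries named WKY also differ in chamber markers, as given below. The strain field names Wistar-Kyoto for all 12 libraries, and a separate field gives an SHR phenotype for the ARB and ARNI libraries and for those with WKY in the library name.

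The heart takes most of its energy from long-chain fatty acids. Lipoprotein lipase, which GPIHBP1 anchors to the capillary wall, frees fatty acids from circulating triglycerides, and the VLDL receptor takes up the lipoproteins that carry them. CD36 then moves them across the membranes of endothelial cells and cardiomyocytes, together with the transport proteins of the SLC27 family, and small binding proteins carry them through the cytosol, FABP3 in cardiomyocytes, FABP4 in capillary endothelium and adipocytes, and FABP5 in endothelium and macrophages. As background, some SHR substrains are known to carry a damaged Cd36 gene. The sequence of the gene in these rats was not analysed here.

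The libraries did not all carry the markers of the labelled chamber, and this touches most values below. Levels are given as CPM, counts scaled to a common library total, and total counts ranged from 11252361 to 15823525. Myl7, a myosin light chain of the atria, reached only 15.9, 3.31 and 0.889 CPM in WKY and 9.67 CPM in ARNI replicate 2, against 4478 to 11547 CPM in the other SHR-strain libraries. Myl2, its ventricular counterpart, was at 3489 to 3776 CPM in the WKY libraries, 2298 CPM in SHR replicate 2, 2573 CPM in ARB replicate 3 and 4161 CPM in ARNI replicate 2, against 0.136 to 24.2 CPM in the other 6. The summed CPM of 6 ventricular markers was 43273 to 43595 in the WKY libraries, 9833, 10624 and 18563 in those 3 SHR-strain libraries and 371 to 935 in the others. The summed CPM of 10 atrial markers was 1843 to 2252 in the WKY libraries, 1586 in ARNI replicate 2 and 33678 to 90318 in the others. By these markers the WKY libraries and ARNI replicate 2 carried ventricular markers and few atrial ones, and SHR replicate 2 and ARB replicate 3 carried both sets. The strain therefore cannot be told apart from the chamber in a comparison of SHR with WKY, and ARNI replicate 2 is the one SHR-strain library with as few atrial markers as the WKY libraries. Its ventricular markers were not all at the WKY level: Myl2, Myl3 and Irx4 were at 4161, 8440 and 36.9 CPM, near the WKY ranges, but Myh7, the slow myosin heavy chain, was at 5907 CPM against 32130 to 32744 CPM in WKY. Besides these, ARB replicate 2 and ARNI replicate 3 carried white adipocyte markers, with 434 and 237 summed CPM over 6 genes against 2.72 to 24.0 in the other 10.

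Cd36 was far below the WKY level in every SHR-strain library, and the next protein-coding gene after it, RGD1565355, was also lower. The GRCr8 gene table of RefSeq names RGD1565355 as Cd36l1, that is Cd36-like, and it is called the copy here for short. The windows of 250 bases before the start of both genes are shown because the values of the pair are compared below, with TATAAA, searched on both strands, in capitals where it occurs (GRCr8, RefSeq, plus strand, chr4:18246332-18246581 for Cd36 and chr4:18316556-18316805 for Cd36l1).

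Cd36: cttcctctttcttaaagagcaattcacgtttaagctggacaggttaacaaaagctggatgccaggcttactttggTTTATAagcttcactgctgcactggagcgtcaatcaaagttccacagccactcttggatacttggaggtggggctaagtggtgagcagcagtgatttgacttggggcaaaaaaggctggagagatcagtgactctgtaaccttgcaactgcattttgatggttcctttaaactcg

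Cd36l1: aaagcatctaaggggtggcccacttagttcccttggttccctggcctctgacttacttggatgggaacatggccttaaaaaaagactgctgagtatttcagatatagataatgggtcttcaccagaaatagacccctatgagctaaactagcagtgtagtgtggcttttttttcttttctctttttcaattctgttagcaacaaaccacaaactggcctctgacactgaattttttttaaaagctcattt

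The motif occurred once before Cd36, on the minus strand, and did not occur in the window before the copy. It was found in 12.9% of the 33469 windows in the table and in 1 of the 5 members whose window was in the table.

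Cd36 had 1496, 1382 and 1584 CPM in WKY, 68.6, 184.5 and 70.8 CPM in the 3 SHR libraries, 63.6, 82.9 and 142 CPM in the ARB libraries and 73.9, 285 and 149 CPM in the ARNI libraries. No SHR-strain library came near the WKY range, and the lowest WKY library was 4.85-fold above the highest SHR-strain library, which was the ventricular-marked ARNI replicate 2. The log2 fold change of SHR against WKY was -3.89 with a standard error of 0.48, by edgeR's quasi-likelihood fit of these 6 libraries. Cd36 was the one member of the 9 with all SHR-strain libraries below all WKY libraries, a pattern that 6.57% of 14452 genes had. A gap at least as wide as that of Cd36 was found in 14 genes, with Cd36 counted. Cd36 was chosen with this pattern known, so its place among these genes is a description. In bulk tissue, fewer cells of a type and less RNA per cell cannot be told apart, here and for each gene below.

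**Figure D1:**
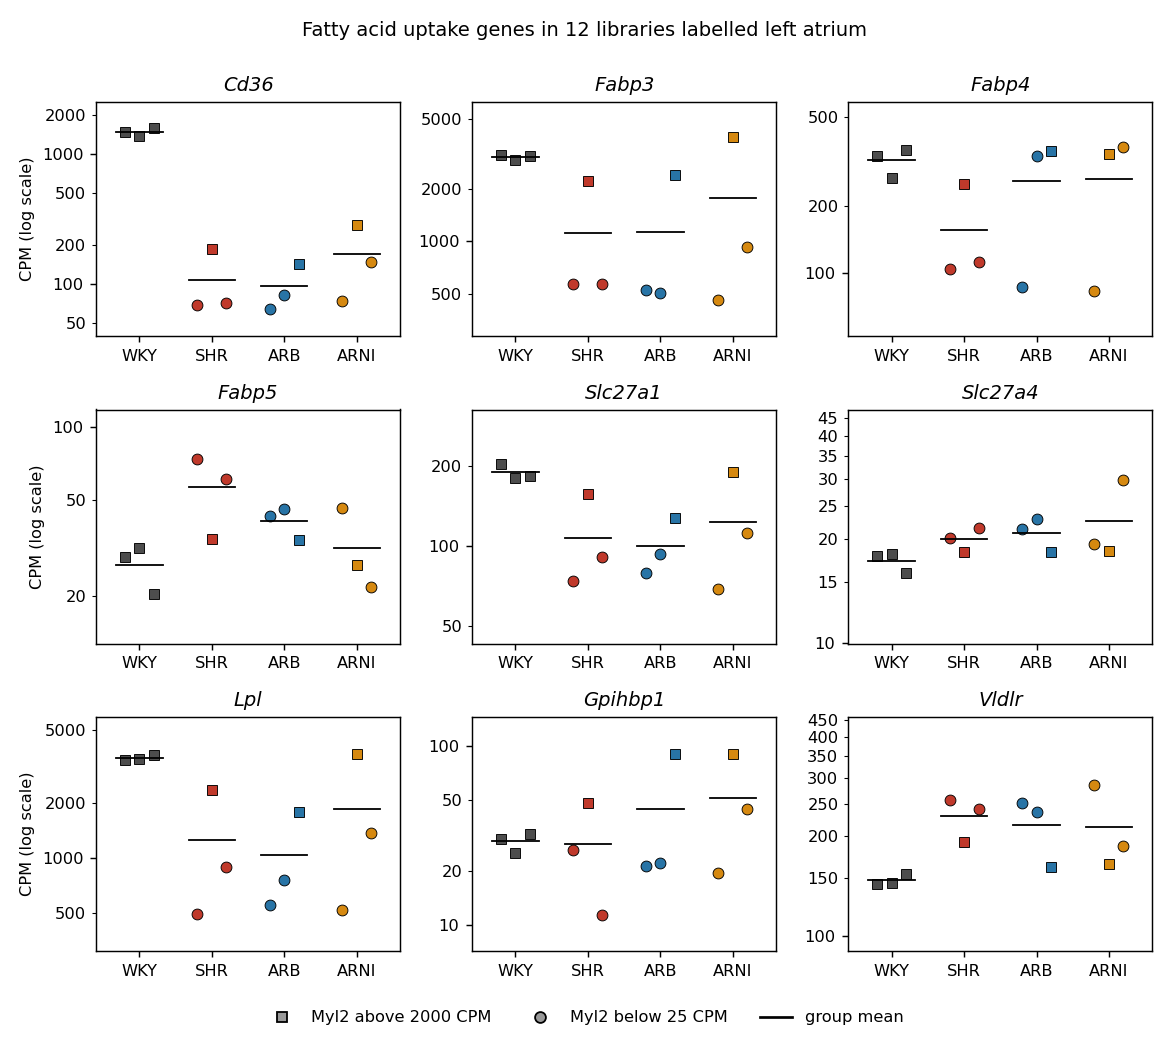
Level of the 9 genes in each of the 12 libraries, in CPM on log axes of different range, by group, with lines at group means (n = 3). Squares are libraries with Myl2 above 2000 CPM and circles those with Myl2 below 25 CPM. Cd36 was at 63.6 to 285 CPM in all 9 SHR-strain libraries against 1382 to 1584 CPM in WKY, while the squares of Fabp3, Slc27a1 and Lpl lay above the circles of the same strain.

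The plot of levels by library shows both features that run through these genes. One is the step of Cd36 between WKY and all other libraries, and the other is the split of several genes between squares and circles inside the SHR strain.

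Within the SHR strain Cd36 also varied, 4.49-fold from the lowest to the highest library. The 3 libraries with ventricular markers (SHR replicate 2, ARB replicate 3 and ARNI replicate 2) were at 142 to 285 CPM and the other 6 at 63.6 to 149 CPM, so these sets overlapped at ARNI replicate 3. Without SHR replicate 2, the log2 fold change of SHR against WKY was -4.59.

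RGD1565355 was present at 143, 126 and 157 CPM in WKY and at 20.15 to 122 CPM in the SHR-strain libraries, with 78.8 CPM in SHR replicate 2 and 122 CPM in ARNI replicate 2. All SHR-strain libraries were below all WKY libraries, as for 6.57% of genes, but the lowest WKY library was only 1.03-fold above ARNI replicate 2. Cd36 counts stood at 10.5, 10.97 and 10.1 times those of the copy in the WKY libraries. In the SHR libraries the ratio was 2.31, 2.34 and 2.22, in the ARB libraries 3.16, 2.40 and 2.84, and in the ARNI libraries 1.90, 2.34 and 2.39. The ratio thus fell into 2 ranges that did not overlap, and the SHR-strain libraries with ventricular markers, at 2.34, 2.84 and 2.34, lay inside the range of the other 6.

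**Figure D2:**
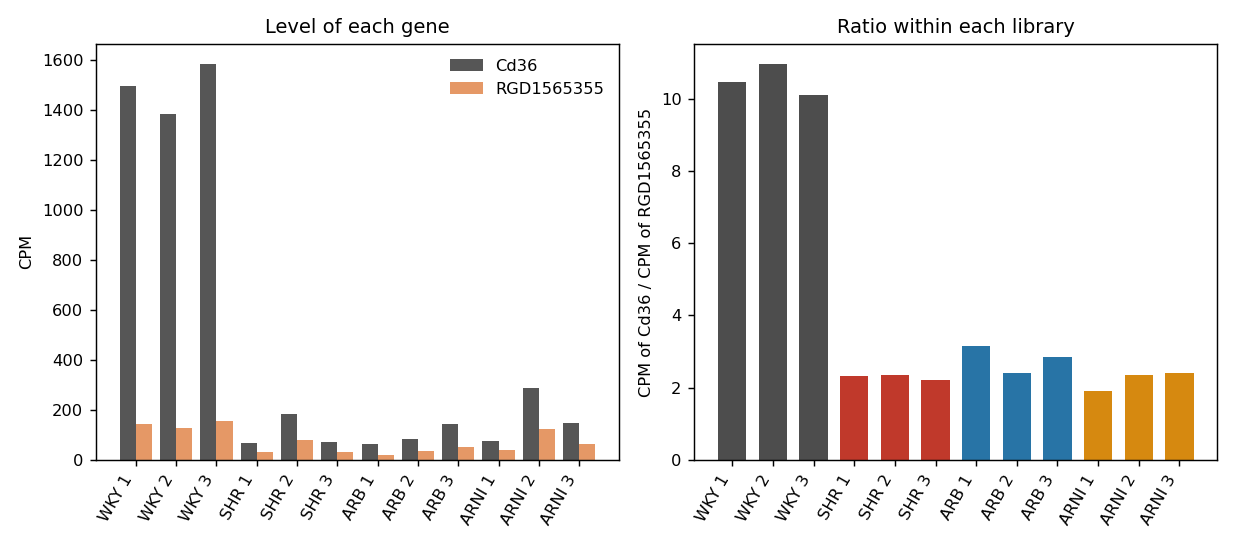
Left, CPM of Cd36 and of its copy RGD1565355 in each library. Right, CPM of Cd36 over CPM of RGD1565355 within each library, with bars coloured by group. The ratio was 10.1 to 10.97 in the 3 WKY libraries and 1.90 to 3.16 in the 9 SHR-strain libraries.

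The count of Cd36 was not whole in 11 of 12 libraries and that of the copy in 12 of 12, as RSEM gives where a read matches more than one place and is divided. The bars of both genes and of their ratio are uncertain to the extent that reads were divided between the pair. The sum of both genes avoids such a division, and it was 1508 to 1741 CPM in the WKY libraries against 83.7 to 407 CPM in the SHR-strain libraries. With the counts of both genes summed, the log2 fold change of SHR against WKY was -3.50 with a standard error of 0.46. Of the genes around the pair, Gnai1 was at 4.36 to 5.48 CPM in WKY and 3.62 to 9.77 CPM in the SHR strain, and Sema3c at 68.1 to 87.8 CPM and 31.4 to 109 CPM, so that both overlapped between strains. Gnat3, directly before Cd36, did not overlap, at 0.61 to 0.80 CPM in WKY and 0.132 to 0.473 CPM in the SHR strain. These levels are a few reads per library, and 6.57% of 14452 genes had all SHR-strain libraries below all WKY libraries. That share is over genes kept by the filter on low counts and may not hold at levels this low. LOC134486712 and Cd36-ps1, which follow the copy, were not analysed here.

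Lpl and Fabp3 were lower in SHR than in WKY as groups, but they reached the WKY level in ARNI replicate 2. Lpl, the lipase that frees fatty acids from triglycerides, had 3445, 3458 and 3662 CPM in WKY, 493, 2352 and 890 CPM in the SHR libraries, 555, 759 and 1791 CPM in the ARB libraries and 520, 3677 and 1372 CPM in the ARNI libraries. The 3 highest SHR-strain libraries were those with ventricular markers, and the highest of them exceeded all WKY libraries. The log2 fold change of SHR against WKY was -1.60 with a standard error of 0.57, and without SHR replicate 2 it was -2.54.

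Fabp3, the binding protein of cardiomyocytes, had 3119, 2931.5 and 3099.5 CPM in WKY, 568, 2226 and 571 CPM in the SHR libraries, 525, 506 and 2384 CPM in the ARB libraries and 459.5, 3936 and 925 CPM in the ARNI libraries. It was split in the same way, with 2226 to 3936 CPM in the 3 SHR-strain libraries with ventricular markers and 459.5 to 925 CPM in the other 6. In SHR against WKY the log2 fold change was -1.54 with a standard error of 0.59. The count of Fabp3 was not whole in 12 of 12 libraries, so part of its reads also matched elsewhere.

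Set against these genes within a library, Cd36 was lower in every SHR-strain library than in the WKY libraries, but both ratios also differed with the markers. For both genes the 3 SHR-strain libraries with ventricular markers had the lowest ratios of the strain. Cd36 over Fabp3 was 0.472 to 0.511 in the WKY libraries and 0.0597 to 0.164 in the SHR-strain libraries. Cd36 over Lpl was 0.3997 to 0.434 and 0.0776 to 0.142, with the lowest value in ARNI replicate 2. SHR replicate 3, without ventricular markers, was close to those 3 libraries in this ratio, at 0.07952. The ranges of both ratios did not overlap between strains. Fabp3 over Lpl, in contrast, was 0.846 to 0.905 in WKY and 0.641 to 1.33 in the SHR strain, with the WKY range inside that of the SHR strain.

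**Figure D3:**
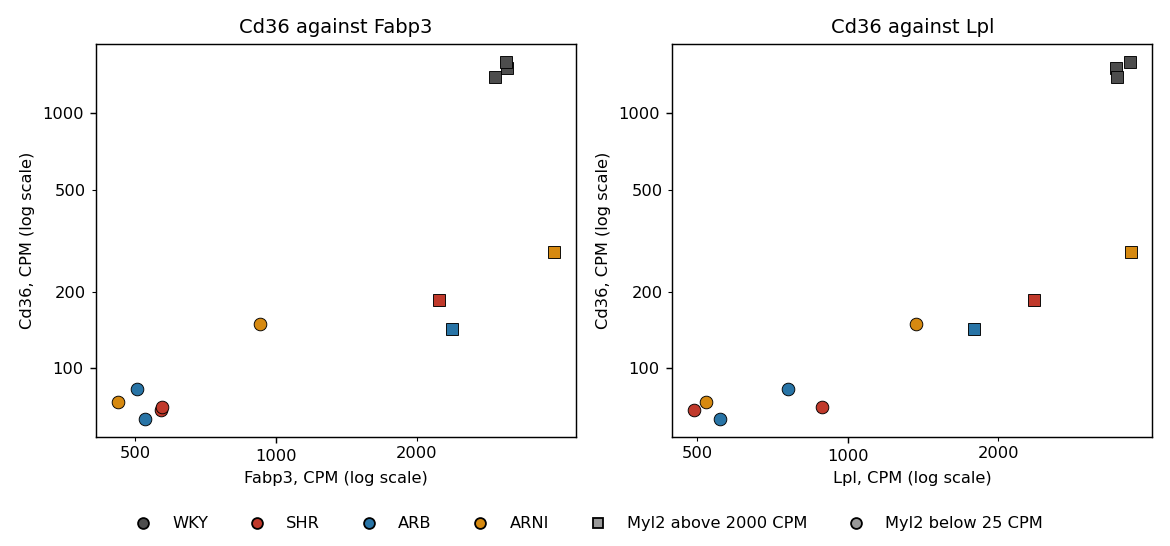
CPM of Cd36 against CPM of Fabp3 (left) and of Lpl (right), 1 point per library, all axes logarithmic, coloured by group, with squares for libraries with Myl2 above 2000 CPM. ARNI replicate 2 lay at the WKY level on the horizontal axes (3936 CPM of Fabp3 and 3677 CPM of Lpl) and at 285 CPM of Cd36 on the vertical axis, below the 1382 to 1584 CPM of WKY.

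The scatter of Cd36 against its partners places ARNI replicate 2 directly under the WKY libraries. Relative to the WKY mean, that library had 1.29 times the Fabp3, 1.04 times the Lpl, 1.01 times the Slc27a1, 1.06 times the Fabp4, 1.12 times the Vldlr, 1.07 times the Slc27a4 and 0.992 times the Fabp5. Gpihbp1 was at 3.05 times and RGD1565355 at 0.859 times the WKY mean, but Cd36 was at 0.192 times it, or 5.21-fold lower. At least 2-fold below the lowest WKY library in ARNI replicate 2 were 4.49% of genes, among them Cd36 and no other member, and at least 2-fold above the highest were 1.14%, among them Gpihbp1. In ARNI replicate 2, 216 genes, Cd36 counted, were at least as far below the lowest WKY library as Cd36. The gap of Myh7 between the lowest WKY library and ARNI replicate 2 was 5.44-fold, wider than the 4.85-fold gap of Cd36. This is a single library, so the comparison has no replicate. Cd36 was chosen as low in every SHR-strain library, this one included, so its place here is a description.

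The share of Cd36 in the summed counts of the 9 genes was 16.4% to 17.4% in the WKY libraries and 2.79% to 4.68% in the SHR-strain libraries. The summed CPM of the 9 genes was 8440 to 9110 in WKY, 8729 in ARNI replicate 2, 5463 in SHR replicate 2, 5102 in ARB replicate 3 and 1578 to 3208 in the other 6.

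Gpihbp1, the capillary anchor of the lipase, had 30.35, 25.3 and 32.35 CPM in WKY, 26.2, 47.6 and 11.45 CPM in the SHR libraries, 21.4, 22.1 and 89.9 CPM in the ARB libraries and 19.6, 89.5 and 44.4 CPM in the ARNI libraries. The SHR-strain libraries lay on both sides of the WKY range, and the 3 with ventricular markers were the highest of all 12. Set against WKY, the SHR group had a log2 fold change of -0.15 with a standard error of 0.49. The summed CPM of 9 endothelial markers was 863 to 986 in WKY and 708 to 1049 in the SHR strain, and in those 3 libraries it was 732, 708 and 916.

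Vldlr, the receptor for triglyceride-rich lipoproteins, ran the other way. It had 144, 144 and 154 CPM in WKY, 258, 193 and 242 CPM in the SHR libraries, 252, 236.5 and 161.5 CPM in the ARB libraries and 287, 165 and 187.5 CPM in the ARNI libraries. All SHR-strain libraries were above all WKY libraries, as for 9.81% of genes, with a gap of 1.05-fold. As a log2 fold change, SHR against WKY was at 0.51 with a standard error of 0.12. The 3 SHR-strain libraries with ventricular markers were at 161.5 to 193 CPM and the other 6 at 187.5 to 287 CPM.

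The transport proteins differed from each other. Slc27a1, the transport protein of muscle and fat, had 203, 180.2 and 182.5 CPM in WKY, 73.8, 156 and 90.8 CPM in the SHR libraries, 78.8, 93.3 and 128 CPM in the ARB libraries and 68.6, 190.0 and 112 CPM in the ARNI libraries. It followed Lpl and Fabp3: the 3 SHR-strain libraries with ventricular markers were the highest of the strain, and only ARNI replicate 2 lay inside the WKY range. Between SHR and WKY the log2 fold change was -0.94 with a standard error of 0.30, and the count of Slc27a1 was not whole in 6 of 12 libraries.

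Slc27a4, a more widely expressed transport protein, varied least among the members inside the SHR strain. It had 17.9, 18.1 and 15.9 CPM in WKY, 20.1, 18.4 and 21.6 CPM in the SHR libraries, 21.4, 22.9 and 18.4 CPM in the ARB libraries and 19.4, 18.5 and 29.8 CPM in the ARNI libraries. All SHR-strain libraries were above all WKY libraries, but by a gap of 1.02-fold, and the log2 fold change of SHR against WKY was 0.07 with a standard error of 0.10. The 3 libraries with ventricular markers were the lowest of the strain, at 18.4 to 18.5 CPM.

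Fabp4, the binding protein of capillary endothelium and adipocytes, had 334, 268.0 and 358.5 CPM in WKY, 104, 251 and 112 CPM in the SHR libraries, 86.3, 336 and 353 CPM in the ARB libraries and 83.3, 341 and 367 CPM in the ARNI libraries. The SHR-strain libraries formed a low set of 4 and a high set of 5. The high set held the 3 libraries with ventricular markers and also ARB replicate 2 and ARNI replicate 3, the libraries with white adipocyte markers at 434 and 237 summed CPM. Of those markers Adipoq, the adipocyte hormone adiponectin, was at 192 and 61.7 CPM in these libraries and at most 4.71 CPM in the others. The part of adipose tissue in the Fabp4 values was not tested. The log2 fold change of SHR against WKY, which neither of these libraries enters, was -1.16 with a standard error of 0.39.

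**Figure D4:**
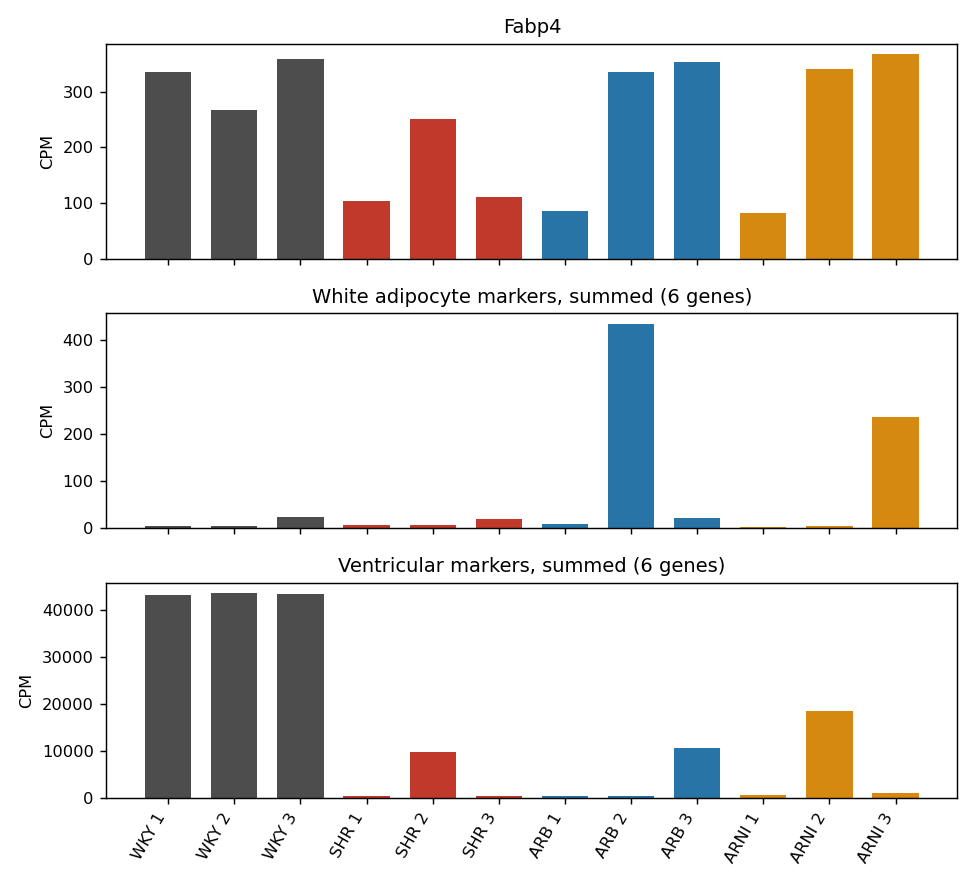
CPM per library of Fabp4 (top), of 6 white adipocyte markers summed (middle) and of 6 ventricular markers summed (bottom), coloured by group. Fabp4 was at 251 to 367 CPM in 5 SHR-strain libraries, and each of these had either adipocyte markers at 237 or 434 CPM or ventricular markers at 9833 to 18563 CPM.

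The bars of Fabp4 and of both marker sets show that the 4 SHR-strain libraries with neither set had 83.3 to 112 CPM of Fabp4. The ratio of Cd36 to Fabp4 was 0.247 to 0.8875 in the SHR-strain libraries, against 4.42 to 5.16 in the WKY libraries. It was 0.247 and 0.405 in ARB replicate 2 and ARNI replicate 3, and 0.403 in ARB replicate 3, which had ventricular markers.

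Fabp5, the binding protein of endothelium and macrophages, had 29.15, 31.6 and 20.35 CPM in WKY, 74.0, 34.5 and 60.8 CPM in the SHR libraries, 43.05, 45.7 and 34.25 CPM in the ARB libraries and 46.3, 26.8 and 21.8 CPM in the ARNI libraries. The SHR and ARB libraries were above the WKY range, and 2 of the 3 ARNI libraries lay inside it. SHR differed from WKY by a log2 fold change of 0.92 with a standard error of 0.28. The summed CPM of 7 macrophage markers was 142 to 204 in WKY and 47.1 to 319 in the SHR strain, with 109, 76.4 and 224 in the SHR libraries. The part of macrophages and endothelium in the Fabp5 values was not tested.

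Counted over the 9 genes, SHR against WKY gave 6 lower and 3 higher values with a median log2 fold change of -0.94, beside 0.01 over all 13794 genes tested. Of all genes, 3.35% were called lower and 5.54% higher, with a log2 fold change of 1 or more in size and a Benjamini-Hochberg adjusted p not above 0.05 in the quasi-likelihood test of edgeR. Nothing is read from the members' own values against these shares, since this contrast chose them. Of the members, 4 (Fabp3, Slc27a1, Lpl and Gpihbp1) were higher in the 3 SHR-strain libraries with ventricular markers than in all of the other 6, as were 9.38% of genes, and 1 (Slc27a4) was lower, as were 17.9%. With the atrial minus ventricular marker score as a covariate in a fit of all 12 libraries, the log2 fold change of SHR against WKY was -2.12 with a standard error of 0.32 for Cd36 and was above 0 for Fabp3, Lpl and Slc27a1, at 1.37, 0.80 and 0.42. In that fit Gpihbp1 was at 2.04, Fabp5 at 0.36, Fabp4 at 0.24, Vldlr at 0.01 and Slc27a4 at -0.07. The scores of the untreated groups do not overlap (-4.34 to -4.29 in WKY and 2.51 to 8.80 in SHR), so this fit leans on ARNI replicate 2, at -3.68, and on extrapolation.

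No member passed the threshold in a comparison of drugs. The comparisons ask whether valsartan or sacubitril/valsartan changed fatty acid uptake genes in SHRs, and were not used in the choice of the genes. The comparisons of ARB and of ARNI with SHR share the SHR libraries, and that of ARNI with ARB shares libraries with both, so they are not independent of each other. In the quasi-likelihood test of edgeR (Benjamini-Hochberg), 0 members and 0% of genes were called in each of the 3 comparisons. At an unadjusted p under 0.05 there were 0 members in each, and 225 of 13979 genes for ARB against SHR, 227 of 13955 for ARNI against SHR and 539 of 13948 for ARNI against ARB. DESeq2 called 0 members and 3, 7 and 18 genes.

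For Cd36 the log2 fold change was -0.14 (SE 0.51) in ARB against SHR, 0.75 (SE 0.66) in ARNI against SHR and 0.90 (SE 0.59) in ARNI against ARB. The levels of 63.6 to 285 CPM in all 9 libraries overlapped between the 3 groups, and in each group the highest library was the one with ventricular markers. Without those 3 libraries the values were 0.09, 0.72 and 0.62. None of the drug groups came near the WKY level of Cd36.

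Lpl gave log2 fold changes of -0.24 (SE 0.70), 0.70 (SE 0.90) and 0.94 (SE 0.83) in ARB against SHR, ARNI against SHR and ARNI against ARB, and Fabp3 gave 0.06 (SE 0.85), 0.79 (SE 0.999) and 0.74 (SE 1.03). Slc27a1 had 0.31 (SE 0.50) in ARNI against SHR. Without ARNI replicate 2, which leaves the ventricular-marked SHR replicate 2 among the controls, ARNI against SHR was -0.42 for Lpl, -0.73 for Fabp3 and -0.25 for Slc27a1. With the libraries with ventricular markers left out of both groups it was 0.51 for Lpl, 0.33 for Fabp3 and 0.18 for Slc27a1.

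Gpihbp1 had 0.68 (SE 0.76) in ARB against SHR and 0.95 (SE 0.74) in ARNI against SHR, and the first turned to -0.43 without ARB replicate 3. Fabp4 had 0.74 (SE 0.60) and 0.84 (SE 0.65), with the adipocyte-marked ARB replicate 2 and ARNI replicate 3 among the high libraries. Fabp5 had -0.43 (SE 0.25) and -0.75 (SE 0.37), and the latter had the lowest unadjusted p of the members in ARNI against SHR, 0.0847, with an adjusted p of 0.999 in the quasi-likelihood test of edgeR (Benjamini-Hochberg). In the ARNI group 2 of 3 libraries had less Fabp5 than every SHR library.

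Vldlr and Slc27a4 had the smallest standard errors in the drug comparisons, with values of -0.07 (SE 0.19) and 0.09 (SE 0.12) in ARB against SHR and -0.04 (SE 0.22) and 0.24 (SE 0.18) in ARNI against SHR. The adjusted p in the quasi-likelihood test of edgeR (Benjamini-Hochberg) was 0.993 or above for every member in all 3 comparisons. Over the 9 members the median log2 fold change was -0.07, 0.70 and 0.27 in ARB against SHR, ARNI against SHR and ARNI against ARB, beside -0.01, 0.00 and 0.02 over all genes. Same-numbered libraries of ARNI and SHR deviated together, and with the replicate number as a block the log2 fold change of ARNI against SHR was 0.68 (SE 0.21) for Cd36, 0.53 (SE 0.20) for Lpl and 0.49 (SE 0.29) for Fabp3, against standard errors of 0.66, 0.90 and 0.999 without it. Cd36 and Lpl were higher and Fabp5 was lower in ARNI than in SHR in 3 of 3 such pairs. Fabp3, Fabp4, Slc27a1, Slc27a4, Gpihbp1 and Vldlr changed direction between pairs. The share of all genes with one direction in 3 of 3 pairs was not counted, so nothing is read from these pairs. Replicate 2 was the library with ventricular markers in both SHR and ARNI, so the block also lines up these libraries. The part of the markers in the smaller standard errors was not tested. The adjusted p with the replicate block was 0.844 for Cd36, Lpl, Fabp3 and Fabp5 in the quasi-likelihood test of edgeR (Benjamini-Hochberg).

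**Figure D5:**
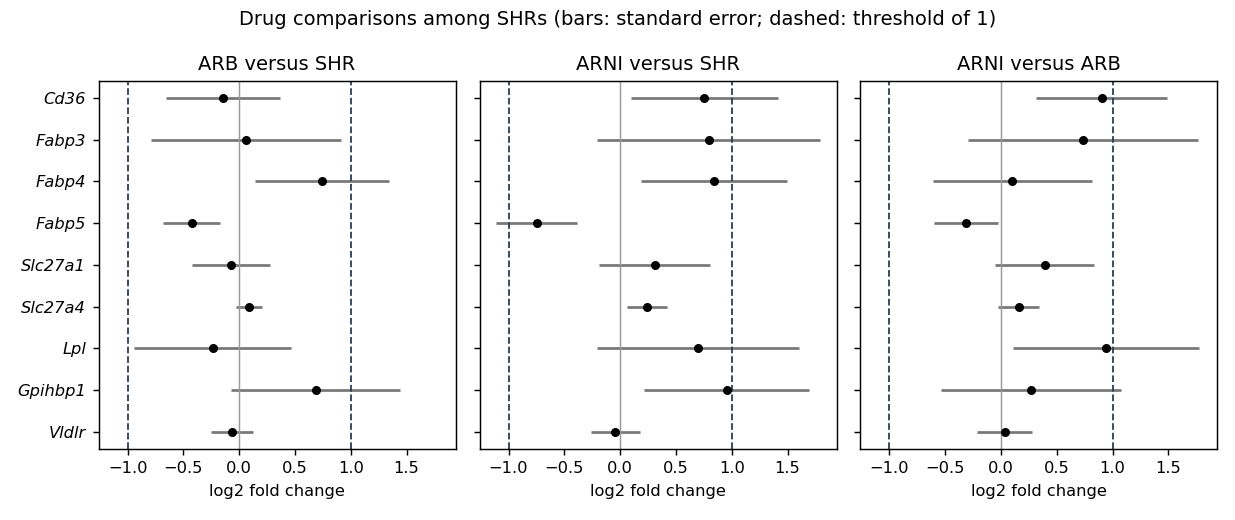
Log2 fold change (horizontal axis) of the 9 genes in the 3 drug comparisons, with bars of 1 standard error (3 libraries against 3) and dashed lines at the threshold of 1. All points lay between -0.75 and 0.95, and the widest bars were those of Fabp3.

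The plot of drug comparisons sets the widths side by side. The bars were narrow for Slc27a4 and Vldlr, the members that varied least inside the SHR strain (1.62-fold and 1.78-fold from lowest to highest), and wide for Fabp3, Gpihbp1 and Lpl, which varied 8.57-fold, 7.85-fold and 7.46-fold.

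The wider pathway held 79 other genes of fatty acid handling in 9 groups, of which 62 were tested in SHR against WKY. In the quasi-likelihood test of edgeR (Benjamini-Hochberg) 3 were called higher and 6 lower, and 22 had a positive and 40 a negative log2 fold change, with a median of -0.36. Over all genes the shares called were 5.54% higher and 3.35% lower. These calls share the chamber difference of the WKY libraries, and with the marker score as a covariate 0 were called, with 100 called among all genes. The number called was 1 to 4 without any 1 of the WKY libraries or without SHR replicate 1, and 22 without SHR replicate 2.

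Among other lipoprotein and scavenger receptors 3 of 8 were called higher and 0 lower, while 4 had a positive and 4 a negative log2 fold change. Over all genes 5.54% were called higher and 3.35% lower. Lrp8, an apolipoprotein E receptor related to Vldlr, had a log2 fold change of 2.58 (SE 0.28), Olr1, the receptor for oxidised LDL, 2.54 (SE 0.40) and Lsr, the lipolysis-stimulated lipoprotein receptor, 1.41 (SE 0.25). Lrp8 was at 3.54 to 5.36 CPM in the WKY libraries and at 3.29 CPM in ARNI replicate 2, against 10.4 to 48.1 CPM in the other SHR-strain libraries, and its adjusted p was 0.00471 in the quasi-likelihood test of edgeR (Benjamini-Hochberg). Lrp1 and Scarb2, the genes of this group with the highest mean CPM, had -0.34 (SE 0.31) and 0.03 (SE 0.10) and were not called.

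Of the 3 other transport proteins tested, Slc27a2 was called lower, by 3.87 on the log2 scale (SE 0.54). Its level was 1.96 to 2.13 CPM in WKY and 0.0669, 0.315 and 0.0677 CPM in SHR, a level of a few reads. It was at 7.12 CPM in ARNI replicate 3. In the endothelial control of uptake 2 of 6 were called lower and 0 higher, and all 6 had a negative log2 fold change. The 2 were Tcf15, a partner of Meox2 in capillary endothelium, at -1.72 (SE 0.44), and Pparg, the adipogenic nuclear receptor, at -1.16 (SE 0.22). Plin4, a lipid droplet coat protein at -1.45 (SE 0.38), was 1 of 12 genes called in lipid droplets, and Cav2, a caveolar protein at -1.04 (SE 0.17), was 1 of 12 in caveolae and CD36 trafficking. Cav1 and Cavin2, which form caveolae, had 0.28 (SE 0.18) and 0.26 (SE 0.16), and Vegfb and Nrp1, a growth factor of the endothelium and its receptor, had -0.36 (SE 0.20) and -0.23 (SE 0.16). The last called gene was Angptl4, an inhibitor of lipoprotein lipase, at -2.17 (SE 0.60), 1 of the 6 tested genes of lipase control. Like Lrp8, Lsr, Plin4 and Tcf15 were near WKY in ARNI replicate 2, inside their WKY ranges at 3.77, 634 and 11.9 CPM. Pparg and Angptl4 were just above theirs there, at 9.75 and 7.31 CPM against at most 9.38 and 7.29 CPM in WKY. Olr1, at 1.26 CPM, was above its WKY range, and Cav2 and Slc27a2, at 57.0 and 0 CPM, were below theirs. Furin, a protease that cuts the lipase and its inhibitors, had 0.60 (SE 0.13), short of the fold change threshold, and Sel1l, needed for secretion of the lipase, had 0.25 (SE 0.12). Pnpla2, the first lipase of lipid droplets, had -1.03 (SE 0.32), and of the genes with the highest mean CPM in the remaining groups Crat had -0.84 (SE 0.44), Dbi -0.68 (SE 0.33), Slc27a3 0.37 (SE 0.31), Acsl5 0.34 (SE 0.15) and Acbd3 0.18 (SE 0.09), none of them called.

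Neither the 5 acyl-CoA synthetases nor the 7 genes of mitochondrial entry held a gene called by edgeR. Before adjustment 3 and 5 of them had a p below 0.05, as had 5428 of all 13794 genes. All 7 genes of mitochondrial entry had negative values, with a median of -0.79. Acsl1, the main synthetase of heart, was at 1302 to 1390 CPM in WKY and 425 to 1374 CPM in the SHR strain, with a log2 fold change of -1.03 (SE 0.33) and an adjusted p of 0.0683 in the quasi-likelihood test of edgeR (Benjamini-Hochberg). Its highest SHR-strain library was ARNI replicate 2, as it was for Got2 and Cpt1b. Got2, which also acts as a fatty acid binding protein of the plasma membrane, had -0.80 (SE 0.33), and Cpt1b, the gate of entry into muscle mitochondria, had -0.79 (SE 0.19). In the drug comparisons 0 of 61 tested genes of the wider pathway were called by edgeR and 0 by DESeq2 in each, and 2 (ARB against SHR), 1 (ARNI against SHR) and 3 (ARNI against ARB) had an edgeR p below 0.05 before adjustment.

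The genes whose level followed that of Cd36 most closely over the 12 libraries were not uptake genes. By Pearson's r of log2(CPM + 1) among 14451 other genes these were Dnajc7 (0.990), Tdrd1 (0.990), Rwdd4 (0.987), Ccdc78 (0.985) and Ttc19 (0.984). None of the 5 overlapped between strains, with the SHR strain lower, as for 6.57% of genes. Their 12 points fall into a WKY set and an SHR-strain set that also differ in chamber markers, so the r is a description of that step. Tdrd1, for example, was at 8.71 to 9.12 CPM in WKY and 0 to 1.49 CPM in the SHR strain. RGD1565355 ranked 204 with r of 0.923, Slc27a1 497 with 0.878, Lpl 538 with 0.873 and Fabp3 938 with 0.825, and Vldlr had -0.876.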

How the data were processed

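Left atrial RNA of 12 rats was sequenced as single-end reads of 50 bases on a BGISEQ-500. Reads were filtered by the authors and aligned with HISAT2 and Bowtie2. The values they deposited are expected counts of each gene, estimated by RSEM and not normalized. The submitters' processing notes name HISAT2 2.0.4, Bowtie2 2.2.5 and the build Rnor_6.0. Of 37246 genes listed, 21239 have counts, and 23.6% of values were not whole. The deposited table also holds the log2 fold change of the authors' own comparison of SHR and WKY and its p-value, and neither was used. Coordinates and sequences are from the RefSeq tables of GRCr8, matched by gene ID (91.7% of genes with counts), and no coordinates of Rnor_6.0 are given.

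Expected counts were rounded to whole numbers, filtered by filterByExpr, scaled by TMM and compared between pairs of groups on their 6 libraries with the quasi-likelihood test of edgeR 4.0.16 (R 4.3.3), with Benjamini-Hochberg adjustment over all genes tested. A called gene had a log2 fold change of 1 or more in size and an adjusted p not above 0.05. The standard error given with an edgeR log2 fold change is its size divided by the square root of the F statistic. For the members in SHR against WKY it is given as a description only. CPM was computed on total counts without scaling. Tables and plots were made with Python 3.11.15, pandas 2.3.3, numpy 2.4.6, scipy 1.17.1 and matplotlib 3.10.9. Over 14452 genes kept in all libraries, patterns across libraries were counted. A count of 0 allows up to 3 reads, or 0.190 to 0.267 CPM, which covers counting error only. The alternatives were DESeq2 1.42.0, its size factors, no filter, 1 fit of all 12 libraries, the marker score as covariate, a replicate block and leaving out each library. Leaving out the libraries with ventricular markers and summing Cd36 with its copy were added after seeing the data.

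The members, the wider list and the marker lists were chosen with earlier results of these data known. Named were all members, of the wider list the 8 called genes with the smallest adjusted p and the 2 genes per group with the highest mean CPM, the 5 genes most correlated with Cd36, and its neighbours. Angptl4 was named after its values were seen. Same-numbered libraries of ARNI and SHR deviated together (correlations of 0.507, 0.463 and 0.183), which pairs them by the criterion of 0.1. Those of the other comparisons did not, and the labels give no reason for a pairing. Replicate 2 carried the ventricular markers in both SHR and ARNI, and replicate 3 carried them in ARB. On simulated counts with 200 genes changed 4-fold, edgeR recovered 97.5% for ARB against SHR (14060 genes), 98% for ARNI against SHR (14158 genes), 96% for ARNI against ARB (14117 genes) and 97% for SHR against WKY (13819 genes), with 2, 6, 6 and 5 false calls. The simulation used a dispersion of 0.05 and the same mean for all libraries of a group, without the split by chamber markers seen in the data. Its recovery therefore does not give the power of the drug comparisons.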

Additional observations from a re-analysis of the deposited data

How the results depend on the processing

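No alternative called a member in a drug comparison: adjusted p by edgeR and DESeq2 ranged from 0.782 to 1.0 in ARB against SHR, 0.776 to 1.0 in ARNI against SHR and 0.546 to 1.0 in ARNI against ARB. Genes called went from 0 to 3, 7 and 18 in these comparisons by DESeq2 and to 1 in ARNI against SHR and in ARNI against ARB with the marker score as covariate. In SHR against WKY, 1226 genes were called, 579 in the fit of all 12 libraries, 100 with the covariate, 681 with the replicate block and 348 to 2205 leaving out each library, and of the wider list 9 were called, 14 by DESeq2, 2 in the 12-library fit, 0 with the covariate, 5 with the replicate block and 1 to 22 leaving out each library (22 without SHR replicate 2). The replicate block changed no other call. The cause of these shifts was not tested. Of the members, Fabp5 kept its direction in all 3 drug comparisons under every alternative, as did Cd36, Fabp4, Slc27a4 and Gpihbp1 in ARNI against SHR. Others turned. In ARB against SHR the direction changed without the libraries with ventricular markers for Cd36 (0.0937), Fabp3 (-0.12) and Slc27a1 (0.0912), and for Fabp3 with the replicate block (-0.0424) and the covariate (-4.53e-04). Leaving out each library gave ranges of -0.60 to 0.56 for Cd36, -1.17 to 1.12 for Fabp3, -0.35 to 0.37 for Slc27a1, -0.97 to 0.70 for Lpl, -0.43 to 1.34 for Gpihbp1 and -0.19 to 0.0741 for Vldlr. In ARNI against SHR the covariate gave -0.33 for Fabp3, -0.12 for Slc27a1, -0.12 for Lpl and 0.0786 for Vldlr, and leaving out each library -0.73 to 1.84, -0.25 to 0.74, -0.42 to 1.62 and -0.28 to 0.0735. In ARNI against ARB the covariate gave -0.32 for Fabp3, -0.30 for Fabp4, -0.10 for Slc27a1 and -0.29 for Gpihbp1, the fit without libraries with ventricular markers -0.0189 for Vldlr, and leaving out each library -0.78 to 1.97 for Fabp3, -0.31 to 0.53 for Fabp4, -0.18 to 0.70 for Slc27a1, -0.0330 to 0.27 for Slc27a4, -0.18 to 1.68 for Lpl, -0.53 to 1.39 for Gpihbp1 and -0.21 to 0.16 for Vldlr. Depth does not limit the members, whose lowest level of 11.45 CPM was far above the 0.267 CPM that a count of 0 allows.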

Other observations

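The sum of the brown adipocyte markers was also highest in ARNI replicate 3, with 332 CPM over 3 genes against 56.8 to 120 in the other 11 libraries. Of these genes, Elovl3 was at 0 CPM in ARNI replicate 3. Cidea was at 150 CPM there and present in all others, at 56.8 to 120 CPM. Ucp1, the uncoupling protein of brown fat, was at 182 CPM in that library, 15.6 CPM in ARB replicate 2 and 0 to 1.19 CPM in the others. The same library had the highest Slc27a2 (7.12 CPM), Angptl4 (19.3 CPM), Slc27a4 (29.8 CPM) and Fabp4 (367 CPM) of all 12, and Pparg was at 17.0 CPM there and at 18.3 CPM in ARB replicate 2 against 2.71 to 9.75 CPM in the other 10. These values belong to single libraries and were not tested.

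Of the 5 platelet markers Gp1bb was at 4.04 to 7.25 CPM in the WKY libraries and 1.89 CPM in ARNI replicate 2, against 14.5 to 47.5 CPM in the other SHR-strain libraries, and the other 4 overlapped between these sets. The summed CPM of 5 fibroblast markers was 1072 to 1233 in WKY and 656 to 2163 in the SHR strain. The 6 markers shared by cardiomyocytes of both chambers summed to 65016 to 67285 CPM in WKY and 56532 to 78755 CPM in the SHR strain.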
